A study of Arabidopsis thaliana with 10 samples.

Results

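The genes described here encode the antenna proteins and the nuclear-encoded subunits of the photosystems of Arabidopsis thaliana. They are 43 of the 27086 loci in the deposited expression files, listed by locus identifier and not by a cut on their values, though earlier results of these data were known. They comprise 14 LHCB genes, 6 LHCA genes, 12 PSA genes and 11 PSB genes. All 43 had a mean of at least 1 FPKM (fragments scaled to transcript length and to all mapped fragments) over the libraries, none was listed at 0 in any library, and all were tested.

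RNA was sequenced from whole seedlings of ecotype Col-0 at 10 DAG (days after germination), with 2 libraries for each of 5 genotypes. The mutant genotypes were the atbmi1abc triple mutant, the atbmi1ab double mutant of strong phenotype (atbmi1ab_strong), and the single mutants atbmi1b and atbmi1a; wild type (WT) was the control. The AtBMI1 proteins belong to the Polycomb complex PRC1, which marks histone H2A with ubiquitin and keeps genes of other developmental stages silent, and the genotypes are named for their genes AtBMI1A, AtBMI1B and AtBMI1C. The labels give no alleles, growth light, harvest hour or batch, and say neither whether plants were pooled nor whether replicate libraries came from separate cultures.

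In the chloroplast, light is absorbed by chlorophyll bound to light-harvesting proteins, which pass the energy to the reaction centres of photosystem II and photosystem I. LHCB proteins form the antenna of photosystem II and LHCA proteins that of photosystem I. PSB and PSA proteins build the photosystems themselves, together with core subunits encoded in the chloroplast genome. The nuclear genes are among the most abundantly transcribed in green seedlings, are induced by light and by the GLK and GATA greening factors, and in many cases follow a daily rhythm under the circadian clock.

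The 5 promoters below belong to genes whose values stand at the ends of the range described further on, and were chosen after their values were seen. LHCB1.4 had the lowest log2 fold change in both multiple mutants, LHCB1.3 the highest transcript level, and LHCB4.3 was the gene that rose; PSBQ1 and PSBQ2 are copies for the same subunit whose levels parted. Each sequence is the 250 bases before the gene start in RefSeq TAIR10.1, written 5′ to 3′ on the gene's own strand. Capitals mark matches on either strand to the G-box CACGTG, the CCA1-binding site AAAAATCT, the evening element AAAATATCT, the I-box GATAAG, the RY element CATGCA, the CCAAT box CCAAT and the TATA box TATAAA. The windows are chr2:14524357-14524606, plus strand (LHCB1.4), chr1:10477635-10477884, plus strand (LHCB1.3), chr2:16745378-16745627, plus strand (LHCB4.3), chr4:11334102-11334351, plus strand (PSBQ1) and chr4:2673244-2673493, minus strand (PSBQ2).
LHCB1.4: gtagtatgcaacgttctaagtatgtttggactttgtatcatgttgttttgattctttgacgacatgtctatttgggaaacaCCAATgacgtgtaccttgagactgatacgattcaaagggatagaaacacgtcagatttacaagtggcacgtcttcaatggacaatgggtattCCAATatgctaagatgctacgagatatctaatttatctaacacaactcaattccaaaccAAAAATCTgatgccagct
LHCB1.3: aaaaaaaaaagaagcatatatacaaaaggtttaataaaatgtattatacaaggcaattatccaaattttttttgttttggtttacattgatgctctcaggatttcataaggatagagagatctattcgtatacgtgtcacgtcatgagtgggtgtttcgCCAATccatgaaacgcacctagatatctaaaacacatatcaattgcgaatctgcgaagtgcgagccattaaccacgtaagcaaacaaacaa
LHCB4.3: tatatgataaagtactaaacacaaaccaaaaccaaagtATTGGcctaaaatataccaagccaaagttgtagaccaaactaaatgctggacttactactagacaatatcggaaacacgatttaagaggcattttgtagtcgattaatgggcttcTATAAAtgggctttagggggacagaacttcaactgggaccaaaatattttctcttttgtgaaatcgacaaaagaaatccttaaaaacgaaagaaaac
PSBQ1: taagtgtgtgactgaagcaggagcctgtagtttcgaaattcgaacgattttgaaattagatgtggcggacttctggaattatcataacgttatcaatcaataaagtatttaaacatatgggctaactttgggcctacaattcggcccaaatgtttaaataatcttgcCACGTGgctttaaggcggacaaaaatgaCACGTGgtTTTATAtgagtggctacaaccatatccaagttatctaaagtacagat
PSBQ2: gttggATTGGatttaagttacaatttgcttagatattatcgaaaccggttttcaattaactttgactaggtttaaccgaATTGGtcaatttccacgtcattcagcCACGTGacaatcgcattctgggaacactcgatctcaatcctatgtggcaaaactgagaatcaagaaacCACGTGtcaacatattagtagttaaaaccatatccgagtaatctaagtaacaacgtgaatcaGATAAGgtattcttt

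The LHCB1.4 window held a CCA1-binding site and 2 CCAAT boxes, the LHCB1.3 window 1 CCAAT box, and the LHCB4.3 window a CCAAT box and a TATA box. PSBQ1 and PSBQ2 each held 2 G-boxes, the motif bound by bZIP and bHLH factors of light signalling. Over all genes described, the G-box was in 9 of 43 windows (20.93%), against 6.486% of all 27443 windows of the same length. The CCAAT box was in 27 windows (62.79%, against 46.04%), the I-box in 9 (20.93%, against 12.29%), the CCA1-binding site in 5 (11.63%, against 6.687%) and the TATA box in 19 (44.19%, against 47.35%). The RY element, a motif of seed-specific promoters, was in 3 windows (6.977%, against 8.432%), and the evening element in 1 (2.326%, against 2.361%). These are matches of letters in a window, given as a description.

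Several libraries stood apart and are named beside the results they touch. FPKM sums lay between 792416 and 990295 per library, and relative depth, read from the steps between low values, between 0.818 and 1.35 times that of WT replicate 1; read totals were not used here. Chloroplast-encoded loci held 0.00752% to 0.240% of the FPKM sum in the 8 mutant libraries, against 0.744% in WT replicate 1 and 2.24% in WT replicate 2, so both WT libraries stood above every mutant library. Of the 43 genes described, 42 were higher in WT replicate 2 than in WT replicate 1, by a median of 1.19 times. Seed storage and late embryo transcripts (11 loci) summed to 2952 FPKM in atbmi1a replicate 1 and to 47.3 FPKM in atbmi1a replicate 2. AtBMI1A itself had 10.3 and 13.7 FPKM in the libraries labelled atbmi1abc, 7.89 and 9.19 in those labelled atbmi1ab_strong and 26.8 and 33.4 in those labelled atbmi1a, against 6.91 and 6.08 in WT. AtBMI1B had 3.89 and 3.64 FPKM in atbmi1abc, 1.70 and 1.91 in atbmi1ab_strong and 0.182 and 0.108 in atbmi1b, against 6.34 and 5.86 in WT. AtBMI1C had 3.04 and 4.35 FPKM in the libraries labelled atbmi1abc and 3.42 and 3.22 in atbmi1ab_strong, against 0.136 and 0.0456 in WT. AtBMI1B RNA was thus lower than in WT in each genotype named for it, and RNA of AtBMI1A and AtBMI1C was not; the genotype names used here are those of the labels.

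Antenna and photosystem transcripts were far lower in the double and triple mutants and were moderately lower in the single mutants. The 43 genes together held 0.605% and 0.619% of the FPKM sum in atbmi1abc, 0.569% and 0.647% in atbmi1ab_strong, 8.65% and 8.81% in atbmi1b and 10.8% and 12.3% in atbmi1a, against 16.2% and 18.0% in WT. Among the 100 loci with the highest FPKM of a library, none of the 43 appeared in the atbmi1abc libraries and 1 in each atbmi1ab_strong library, while there were 34 in each atbmi1b library, 36 and 37 in atbmi1a, and 37 in each WT library. The summed shares of FPKM did not overlap between genotypes except between atbmi1abc and atbmi1ab_strong. Whole seedlings were sequenced, so fewer green cells and less of these RNAs per green cell cannot be told apart.

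Against WT, 42 of the 43 genes fell and 1 rose in atbmi1abc, where 37.7% of all tested loci fell and 36.3% rose. The same counts, 42 and 1, held in atbmi1ab_strong, where 32.6% of tested loci fell and 31.8% rose (limma on log2(FPKM + 1), Benjamini-Hochberg adjusted p under 0.05). The median log2 fold change of the 43 genes was -4.98 in both mutants, beside medians of 0.00 over all tested loci. Both comparisons use the same WT libraries. A fall of more than 4 on the log2 scale was seen in 33 of the 43 genes in atbmi1abc, beside 2.91% of tested loci, and in 36 in atbmi1ab_strong, beside 1.27%. Among the 100 tested loci with the lowest fold changes, 5 of the 43 genes appeared in atbmi1abc and 23 in atbmi1ab_strong.

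Changes in the single mutants were smaller in size. In atbmi1b, 37 of the 43 genes fell and 2 rose, beside 24.1% and 21.3% of tested loci, with a median log2 fold change of -0.99. In atbmi1a, 28 fell and 3 rose, beside 18.4% and 17% of tested loci, with a median of -0.57. The atbmi1a count was 17 without WT replicate 2 and 23 without atbmi1a replicate 1. Quantile normalization, which forces the top ranks of all libraries to the same values, left 21 falls and 4 rises in atbmi1b and 6 falls and 5 rises in atbmi1a and turned the direction of 8 and 3 of the called genes. In 34 of the 43 genes every WT library lay above both atbmi1a libraries, these above both atbmi1b libraries, and these above all libraries of atbmi1ab_strong and atbmi1abc, an order held by 3.05% of tested loci. The 9 exceptions were LHCB2.3, LHCB4.3, LHCA5, LHCA6, PSAH1, PSAH2, PSBO2, PSBQ1 and PSBS.

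**Figure D1:**
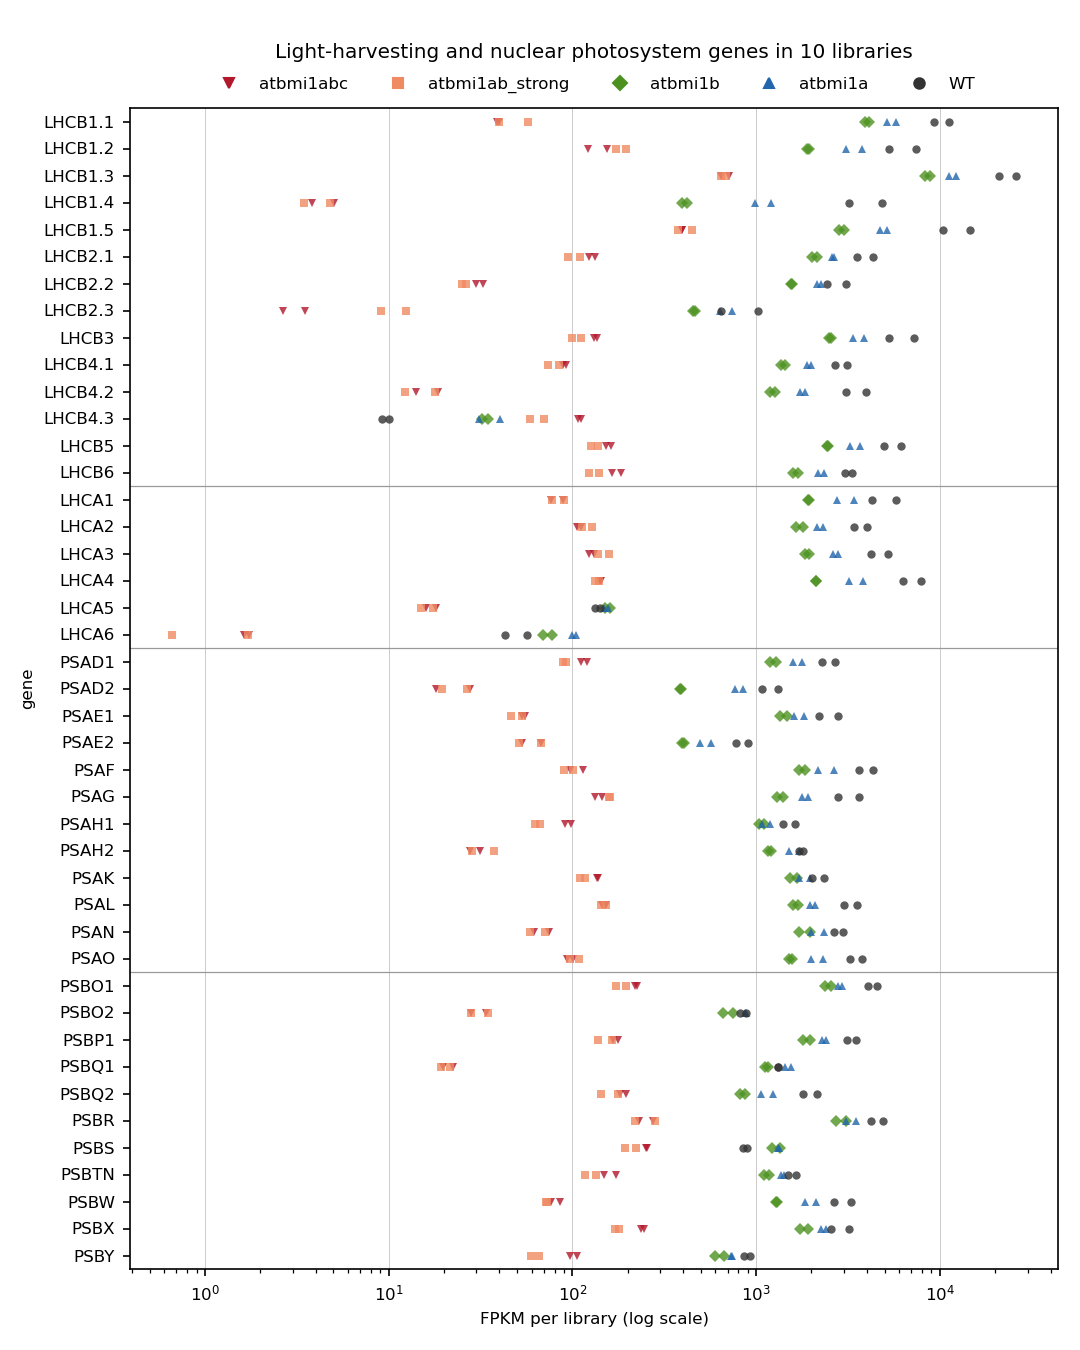
FPKM on a log axis of each of the 43 genes in the 10 libraries, 1 symbol per library, with LHCB, LHCA, PSA and PSB genes separated by lines. In 42 of the 43 genes all atbmi1abc and atbmi1ab_strong symbols lie left of all others; LHCB4.3 runs the other way.

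Values written as a number ± SE are log2 fold changes, the genotype named first over the other, on the log2(FPKM + 1) scale. The falls followed the same order of subunit groups in each mutant. In atbmi1abc the median log2 fold change was -5.32 over the 14 LHCB genes, -5.14 over the 6 LHCA genes, -4.84 over the 12 PSA genes and -4.17 over the 11 PSB genes. In atbmi1ab_strong these medians were -5.32, -4.95, -4.92 and -4.20 in the same order of groups. In atbmi1b they were -1.24, -1.21, -1.0 and -0.65, and in atbmi1a -0.73, -0.72, -0.56 and -0.30. The 4 comparisons share their WT libraries, and the difference between subunit groups was not tested.

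**Figure D2:**
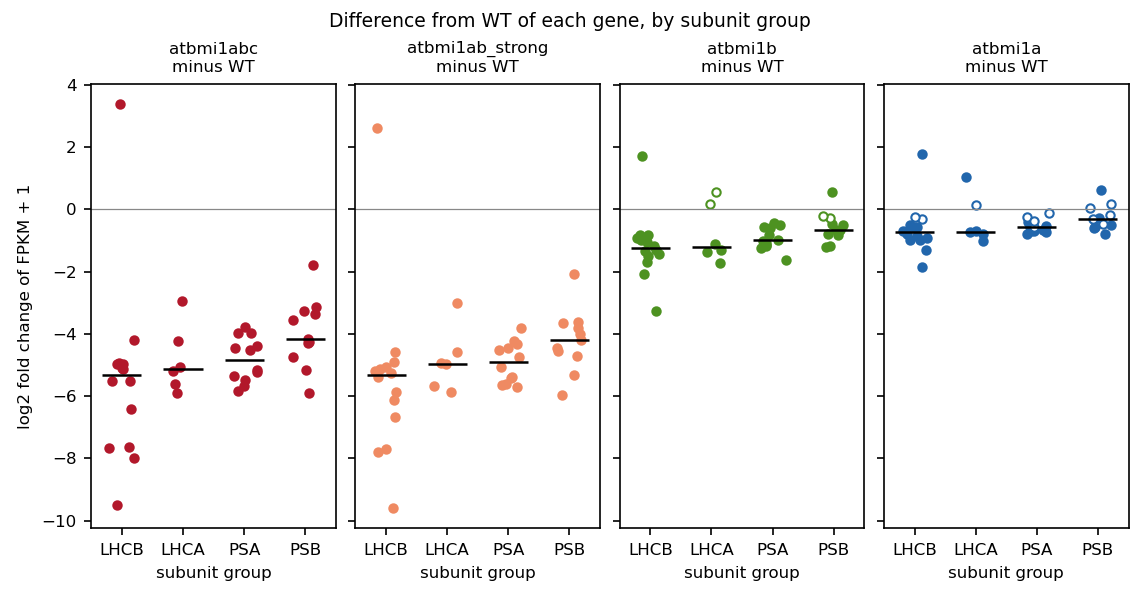
Log2 fold change against WT of each gene on the log2(FPKM + 1) scale, by mutant (panels) and subunit group; filled points passed the test, open points did not, and bars are group medians. Points of atbmi1abc and atbmi1ab_strong lie mostly between -4 and -6, and the LHCB columns reach -9.51 and -9.59; under quantile normalization 8 called genes of atbmi1b and 3 of atbmi1a changed direction.

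The LHCB1 genes encode the main protein of the trimeric antenna LHCII, and their 5 copies parted widely. LHCB1.3 (AT1G29930) was the most abundant of the 43 transcripts in every library, at 643 and 716 FPKM in atbmi1abc, 645 and 683 in atbmi1ab_strong, 8306 and 8844 in atbmi1b and 11141 and 12196 in atbmi1a, against 21014 and 26011 in WT. Its log2 fold change was -5.10 ± 0.13 (adjusted p = 5.16e-08) in atbmi1abc and -5.14 ± 0.13 (adjusted p = 5.79e-08) in atbmi1ab_strong. Its neighbour LHCB1.1 (AT1G29920) had 38.6 and 39.6 FPKM in atbmi1abc, 39.8 and 57.4 in atbmi1ab_strong, 3907 and 4090.4 in atbmi1b and 5166 and 5745 in atbmi1a, against 9330.3 and 11204 in WT. The ratio of LHCB1.1 to LHCB1.3 was 0.0601 and 0.0554 in atbmi1abc and 0.0616 and 0.0840 in atbmi1ab_strong, against 0.444 and 0.431 in WT, and the log2 fold changes of LHCB1.1 were -7.99 ± 0.17 (adjusted p = 3.47e-08) and -7.71 ± 0.17 (adjusted p = 5.36e-08). It also fell in atbmi1b, at -1.35 ± 0.17 (adjusted p = 0.000555), and in atbmi1a, at -0.91 ± 0.17 (adjusted p = 0.00568), but under quantile normalization these values were 0.00 and 0.24.

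LHCB1.4 (AT2G34430) had the lowest fold change of the 43 genes in each of the 4 mutants. Its level was 3.84 and 5.03 FPKM in atbmi1abc, 3.44 and 4.82 in atbmi1ab_strong, 395 and 419 in atbmi1b and 981 and 1208 in atbmi1a, against 3203 and 4818 in WT. The groups did not overlap except between atbmi1abc and atbmi1ab_strong, and the log2 fold changes were -9.51 ± 0.22 (adjusted p = 4.28e-08) in atbmi1abc, -9.59 ± 0.22 (adjusted p = 5.42e-08) in atbmi1ab_strong, -3.27 ± 0.22 (adjusted p = 4.88e-05) in atbmi1b and -1.85 ± 0.22 (adjusted p = 0.00107) in atbmi1a. LHCB1.5 (AT2G34420), which lies beside LHCB1.4 on chromosome 2 in the opposite orientation, had 394 and 393 FPKM in atbmi1abc, 376 and 449 in atbmi1ab_strong, 2816 and 3019.6 in atbmi1b and 4720.3 and 5126 in atbmi1a, against 10401 and 14545 in WT. It kept more of its level than LHCB1.4 in each mutant, with a log2 fold change of -4.96 ± 0.16 (adjusted p = 1.41e-07) in atbmi1abc and -2.08 ± 0.16 (adjusted p = 7.95e-05) in atbmi1b. LHCB1.2 (AT1G29910) had 122 and 153 FPKM in atbmi1abc, 172 and 195 in atbmi1ab_strong, 1944 and 1887 in atbmi1b and 3099 and 3776 in atbmi1a, against 5259 and 7382 in WT.

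Within the summed LHCB1 level, LHCB1.1 made up 3.22% and 3.03% in atbmi1abc and 3.21% and 4.13% in atbmi1ab_strong, against 19.0% and 17.5% in WT. LHCB1.4 made up 0.320% and 0.385% in atbmi1abc and 0.278% and 0.347% in atbmi1ab_strong, against 6.51% and 7.53% in WT. The share of LHCB1.3 was larger than in WT, at 53.6% and 54.8% in atbmi1abc and 52.2% and 49.2% in atbmi1ab_strong, against 42.7% and 40.7% in WT. That of LHCB1.5 was 32.8% and 30.1% in atbmi1abc and 30.4% and 32.3% in atbmi1ab_strong, against 21.1% and 22.7% in WT. In the single mutants LHCB1.1 stood above its WT share (22.5% and 22.4% in atbmi1b and 20.6% and 20.5% in atbmi1a), so its low share was seen in the multiple mutants alone among these 5 genotypes. With 2 libraries against 2, an exact permutation test cannot go below p = 0.333, so shares and ratios of copies are given as descriptions.

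**Figure D3:**
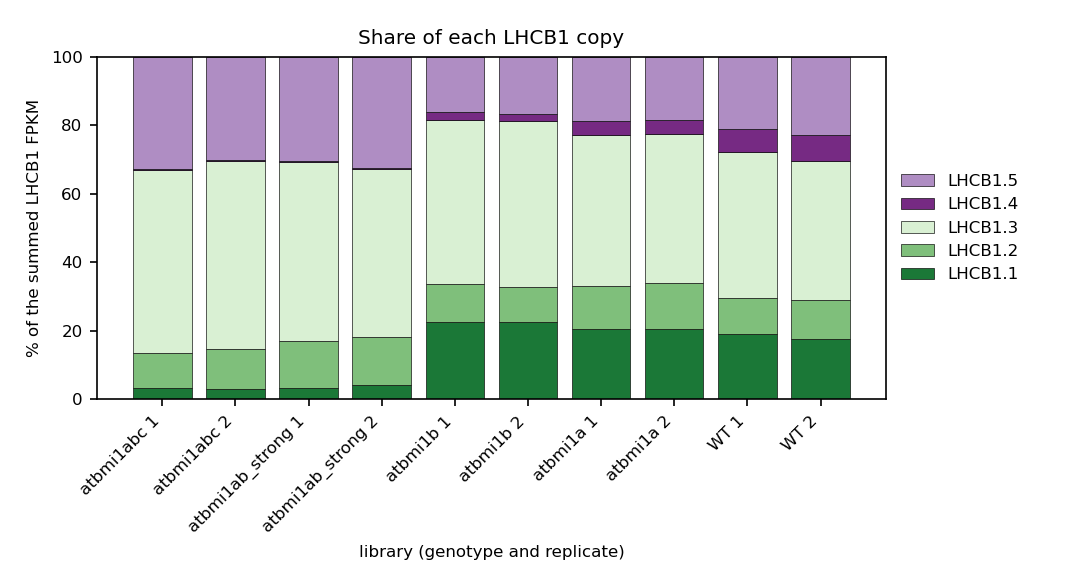
Share of each of the 5 LHCB1 copies in their summed FPKM, 1 stacked bar per library, mutants left of WT. LHCB1.1 and LHCB1.4 shrink to at most 4.13% and 0.385% in the atbmi1abc and atbmi1ab_strong libraries, while LHCB1.3 and LHCB1.5 fill most of the bar.

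These copies are near-identical, which limits the values of single copies. The coding sequences of LHCB1.1, LHCB1.2 and LHCB1.3 were 95.65% to 96.39% identical, and 10.65% to 20.47% of the 50-base windows of the 5 LHCB1 transcripts occurred in another transcript. LHCB2.1 (AT2G05100) and LHCB2.2 (AT2G05070) were 96.62% identical and shared 22.7% and 28.15% of their windows. Of the 43 genes, 35 shared no such window with another transcript on the same strand. Windows of 12 of the 43 matched an antisense transcript, so reads of that length need not be unique to them if strand was not used. How shared reads were divided is not stated in the labels or headers.

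LHCB2 encodes the LHCII protein that is phosphorylated when the antenna moves between photosystems. LHCB2.1 had 132 and 124 FPKM in atbmi1abc, 94.7 and 109 in atbmi1ab_strong, 2010.1 and 2156 in atbmi1b and 2582 and 2665 in atbmi1a, against 3526 and 4346 in WT. LHCB2.2 had 29.8 and 32.5 FPKM in atbmi1abc, 25.2 and 26.4 in atbmi1ab_strong, 1561 and 1547 in atbmi1b and 2137 and 2246 in atbmi1a, against 2416 and 3082 in WT. Both fell in the multiple mutants, LHCB2.2 further, with log2 fold changes of -6.41 ± 0.12 (adjusted p = 3.13e-08) in atbmi1abc and -6.67 ± 0.12 (adjusted p = 4.1e-08) in atbmi1ab_strong, against -4.93 ± 0.12 (adjusted p = 4.71e-08) and -5.25 ± 0.12 (adjusted p = 5.42e-08) for LHCB2.1. LHCB2.3 (AT3G27690) had 3.50 and 2.66 FPKM in atbmi1abc, 12.4 and 9.05 in atbmi1ab_strong, 463 and 453 in atbmi1b and 633 and 736 in atbmi1a, against 640.1 and 1022 in WT. Of the 43 genes it alone was called lower in the triple than in the double mutant, at -1.52 ± 0.23 (adjusted p = 0.00106) for atbmi1abc against atbmi1ab_strong. Its atbmi1a libraries overlapped those of WT. Of its 50-base windows, 38.56% overlap the antisense locus AT3G27700, and the labels do not say whether the counting used strand.

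The other LHCII protein, LHCB3 (AT5G54270), and the minor antenna proteins CP29 (LHCB4), CP26 (LHCB5, AT4G10340) and CP24 (LHCB6, AT1G15820), which link LHCII to the photosystem II core, fell in both multiple mutants with 1 exception. LHCB3 had 135 and 131 FPKM in atbmi1abc, 99.7 and 112 in atbmi1ab_strong, 2507 and 2546 in atbmi1b and 3386 and 3847 in atbmi1a, against 5310.2 and 7196 in WT. LHCB5 had log2 fold changes of -5.13 ± 0.12 (adjusted p = 4.28e-08) in atbmi1abc and -5.38 ± 0.12 (adjusted p = 5.36e-08) in atbmi1ab_strong, and LHCB6 had -4.19 ± 0.10 (adjusted p = 4.67e-08) and -4.59 ± 0.10 (adjusted p = 5.36e-08). Among the CP29 genes, LHCB4.2 (AT3G08940) had 14.2 and 18.5 FPKM in atbmi1abc, 12.2 and 17.9 in atbmi1ab_strong, 1192 and 1268 in atbmi1b and 1742 and 1854 in atbmi1a, against 3098 and 3984 in WT. LHCB4.2 was the more abundant CP29 transcript in WT and fell by more than LHCB4.1 (AT5G01530), with a log2 fold change of -7.68 ± 0.20 (adjusted p = 5.48e-08) in atbmi1abc, beside -4.98 ± 0.10 (adjusted p = 3.38e-08) for LHCB4.1. The ratio of LHCB4.2 to LHCB4.1 was 0.154 and 0.208 in atbmi1abc and 0.166 and 0.213 in atbmi1ab_strong, against 1.15 and 1.28 in WT.

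LHCB4.3 (AT2G40100), also called LHCB8 and known from high-light and stress responses, was the single gene that rose in every mutant. It had 107 and 111 FPKM in atbmi1abc, 58.8 and 70.1 in atbmi1ab_strong, 32.2 and 34.9 in atbmi1b and 40.2 and 31.2 in atbmi1a, against 10.0 and 9.17 in WT. Each mutant lay above WT with no overlap, and the log2 fold changes were 3.38 ± 0.14 (adjusted p = 3.46e-07) in atbmi1abc, 2.62 ± 0.14 (adjusted p = 1.85e-06) in atbmi1ab_strong, 1.71 ± 0.14 (adjusted p = 8.57e-05) in atbmi1b and 1.78 ± 0.14 (adjusted p = 0.000252) in atbmi1a. It rose further in atbmi1abc than in atbmi1ab_strong, by 0.75 ± 0.14 (adjusted p = 0.00241). The ratio of LHCB4.3 to LHCB4.1 was 1.16 and 1.25 in atbmi1abc and 0.798 and 0.833 in atbmi1ab_strong, against 0.00372 and 0.00295 in WT. LHCB4.3 shared 65.74% of its coding positions with LHCB4.1 and no 50-base window with any other transcript.

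LHCA1 (AT3G54890) to LHCA4 (AT3G47470) form the antenna belt of photosystem I. LHCA4 had 141 and 143 FPKM in atbmi1abc, 132 and 140.2 in atbmi1ab_strong, 2120.2 and 2109 in atbmi1b and 3189 and 3803 in atbmi1a, against 6292 and 7861 in WT. LHCA1 had 76.4 and 88.5 FPKM in atbmi1abc, 77.2 and 89.7 in atbmi1ab_strong, 1918 and 1941 in atbmi1b and 2748 and 3395 in atbmi1a, against 4290.4 and 5763 in WT. The 4 belt genes fell in all mutants, with log2 fold changes between -5.90 (LHCA1) and -5.08 (LHCA2, AT3G61470) in atbmi1abc, and between -1.73 (LHCA4) and -1.10 (LHCA2) in atbmi1b. In atbmi1a the call for LHCA1 was lost without WT replicate 2 (adjusted p = 0.0875) and without atbmi1a replicate 1 (0.0572). LHCA2 shared 8.756% of its windows with AT5G28450.

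LHCA5 (AT1G45474) and LHCA6 (AT1G19150) are minor proteins that attach photosystem I to the NDH complex of cyclic electron flow, and neither was called lower in a single mutant. LHCA5 had 18.1 and 15.9 FPKM in atbmi1abc, 14.9 and 17.5 in atbmi1ab_strong, 149.7 and 159.8 in atbmi1b and 148 and 156 in atbmi1a, against 133 and 141 in WT. LHCA5 fell, at -2.94 ± 0.10 (adjusted p = 1.76e-07) in atbmi1abc and -3.01 ± 0.10 (adjusted p = 2.34e-07) in atbmi1ab_strong. LHCA6 had 1.64 and 1.75 FPKM in atbmi1abc, 0.660 and 1.71 in atbmi1ab_strong, 68.8 and 77.0 in atbmi1b and 99.6 and 105 in atbmi1a, against 42.9 and 56.8 in WT. It rose in atbmi1a by 1.03 ± 0.22 (adjusted p = 0.0107), a call lost without WT replicate 1 (adjusted p = 0.0683) and with a pseudocount of 0.1 (0.0544), and fell, at -4.23 ± 0.22 (adjusted p = 1.28e-06) in atbmi1abc and -4.57 ± 0.22 (adjusted p = 1.44e-06) in atbmi1ab_strong. At under 2 FPKM these last fold changes are damped by the pseudocount of 1.

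**Figure D4:**
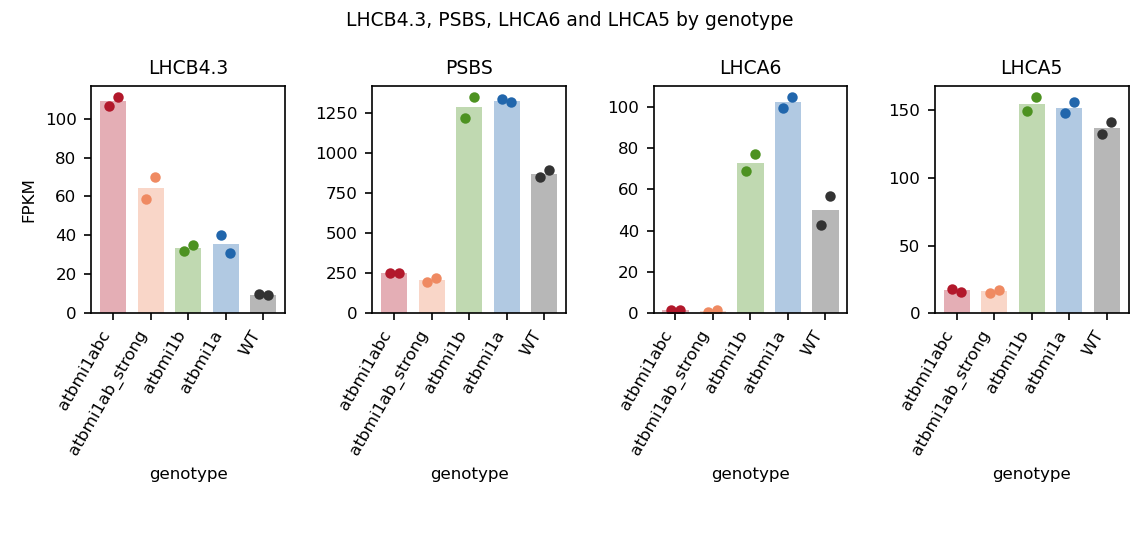
FPKM of LHCB4.3, PSBS, LHCA6 and LHCA5 by genotype; points are the 2 libraries and bars their mean, on axes that start at 0. LHCB4.3 is above WT in every mutant, PSBS is above WT in atbmi1b and atbmi1a and below it in the multiple mutants, and LHCA6 stays under 2 FPKM in atbmi1abc and atbmi1ab_strong.

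The PSA genes encode the nuclear subunits of photosystem I. All 12 fell in atbmi1abc, atbmi1ab_strong and atbmi1b, and 8 of 12 in atbmi1a. PSAF (AT1G31330), which docks plastocyanin on the lumenal side, had 97.3 and 114 FPKM in atbmi1abc, 89.5 and 100.3 in atbmi1ab_strong, 1719 and 1848 in atbmi1b and 2179 and 2662 in atbmi1a, against 3648 and 4340.4 in WT. PSAN (AT5G64040), a lumenal subunit, had 62.0 and 74.7 FPKM in atbmi1abc and 58.7 and 71.2 in atbmi1ab_strong, against 2658 and 2954 in WT. Both fell, at -5.23 ± 0.14 (adjusted p = 6.23e-08) and -5.34 ± 0.15 (adjusted p = 6.84e-08) in atbmi1abc. PSAL (AT4G12800) and PSAO (AT1G08380), subunits on the side where LHCII docks, fell, at -4.44 ± 0.10 (adjusted p = 4.04e-08) and -5.16 ± 0.11 (adjusted p = 3.87e-08), and PSAK (AT1G30380) and PSAG (AT1G55670), which bind the antenna belt, fell, at -3.97 ± 0.11 (adjusted p = 6.23e-08) and -4.51 ± 0.13 (adjusted p = 8.57e-08) in the same comparison. Of the single mutants, atbmi1b was called for PSAK and PSAN, at -0.44 ± 0.11 (adjusted p = 0.0109) and -0.61 ± 0.15 (adjusted p = 0.0112), and atbmi1a was not; the direct comparison of the single mutants called neither gene. These log2 fold changes were 0.22 and 0.35 under quantile normalization, and both calls were lost without WT replicate 2 (adjusted p = 0.0739 and 0.0719) and without atbmi1b replicate 1 (0.0811 and 0.0803).

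PSAD and PSAE bind ferredoxin on the stromal side, and each has a pair of genes. PSAD1 (AT4G02770) had 112 and 120.4 FPKM in atbmi1abc, 89.2 and 92.4 in atbmi1ab_strong, 1194 and 1275 in atbmi1b and 1578 and 1786 in atbmi1a, against 2290.0 and 2679.6 in WT. PSAD2 (AT1G03130) had 18.0 and 27.9 FPKM in atbmi1abc, 19.6 and 26.8 in atbmi1ab_strong, 386 and 388 in atbmi1b and 769 and 852 in atbmi1a, against 1080.1 and 1322 in WT. In atbmi1abc the log2 fold change was -5.67 ± 0.21 (adjusted p = 2.69e-07) for PSAD2 and -4.40 ± 0.10 (adjusted p = 4.45e-08) for PSAD1, and in atbmi1b -1.62 ± 0.21 (adjusted p = 0.000743) and -1.01 ± 0.10 (adjusted p = 0.000249). In atbmi1a it was -0.56 for both, with PSAD1 called (adjusted p = 0.00587) and PSAD2 not (0.0778). The PSAD2 to PSAD1 ratio was 0.161 and 0.231 in atbmi1abc, 0.219 and 0.290 in atbmi1ab_strong, 0.324 and 0.305 in atbmi1b and 0.487 and 0.477 in atbmi1a, against 0.472 and 0.493 in WT, so the copies parted in every mutant but atbmi1a. For PSAE the more abundant WT copy fell further, PSAE1 (AT4G28750) at -5.49 ± 0.13 (adjusted p = 4.4e-08) and PSAE2 (AT2G20260) at -3.78 ± 0.16 (adjusted p = 4.73e-07) in atbmi1abc. The PSAE1 to PSAE2 ratio was 1.00 and 0.818 in atbmi1abc and 0.897 and 0.781 in atbmi1ab_strong, against 2.85 and 3.07 in WT.

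PSAH, needed for LHCII to dock on photosystem I, also has a pair of genes. PSAH2 (AT1G52230) had 27.9 and 31.4 FPKM in atbmi1abc, 28.4 and 37.3 in atbmi1ab_strong, 1166 and 1197 in atbmi1b and 1505 and 1719 in atbmi1a, against 1713 and 1805 in WT. PSAH1 (AT3G16140) had 97.9 and 91.4 FPKM in atbmi1abc, 62.6 and 66.2 in atbmi1ab_strong, 1031 and 1108 in atbmi1b and 1081 and 1188 in atbmi1a, against 1403 and 1619 in WT. The PSAH2 to PSAH1 ratio was 0.285 and 0.343 in atbmi1abc, 0.454 and 0.563 in atbmi1ab_strong, 1.13 and 1.08 in atbmi1b and 1.39 and 1.45 in atbmi1a, against 1.22 and 1.11 in WT. PSAH2 was thus the higher copy in WT and the single mutants and the lower copy in both multiple mutants. Antisense loci overlap 49.16% of the PSAH1 windows, 19.14% of those of PSAH2, 29.11% of those of PSAE1 and 58.82% of those of PSAG.

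**Figure D5:**
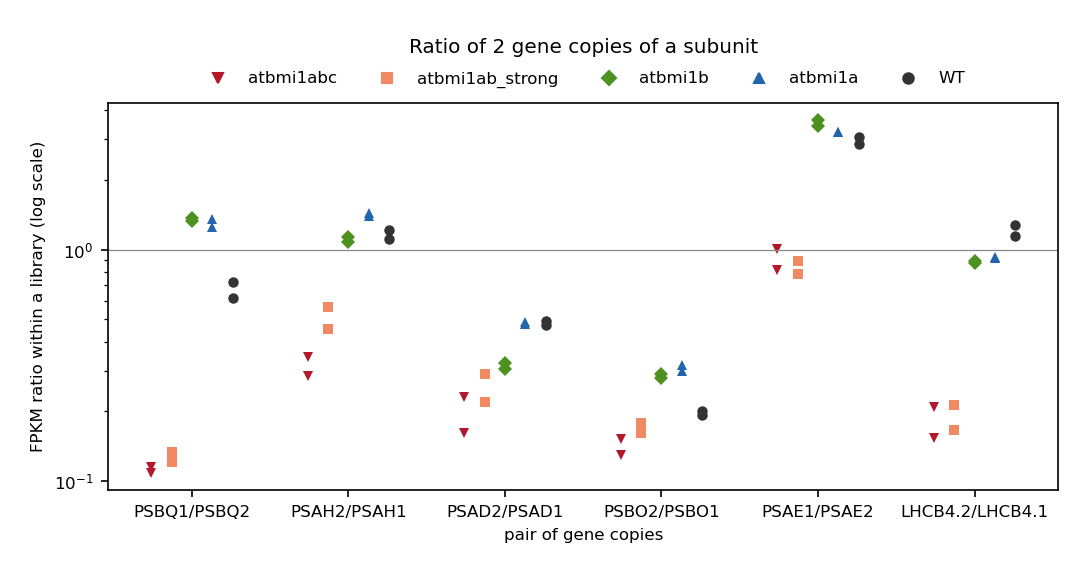
Ratio of the FPKM values of 2 gene copies for the same subunit within each library, on a log axis, 1 symbol per library, mutants left of WT. In the 6 pairs drawn the atbmi1abc and atbmi1ab_strong libraries lie below WT, and PSBQ1/PSBQ2, PSBO2/PSBO1 and PSAE1/PSAE2 lie above WT in atbmi1b and atbmi1a.

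The PSBO, PSBP and PSBQ genes encode the extrinsic proteins that shield the oxygen-evolving manganese cluster of photosystem II. PSBO1 (AT5G66570) had 218 and 223 FPKM in atbmi1abc, 173 and 196 in atbmi1ab_strong, 2374 and 2559 in atbmi1b and 2788 and 2923 in atbmi1a, against 4039.5 and 4568 in WT. PSBO2 (AT3G50820) had 28.2 and 33.9 FPKM in atbmi1abc, 27.9 and 34.8 in atbmi1ab_strong, 660.3 and 744 in atbmi1b and 881 and 872 in atbmi1a, against 812 and 879 in WT. PSBO1 fell in all mutants, at -0.80 ± 0.10 (adjusted p = 0.000544) in atbmi1b, where quantile normalization gave 0.30. PSBO2 passed the test in the multiple mutants alone, at -4.73 ± 0.13 (adjusted p = 6.96e-08) in atbmi1abc. PSBP1 (AT1G06680) fell, at -4.25 ± 0.11 (adjusted p = 5.48e-08) in atbmi1abc and -4.45 ± 0.11 (adjusted p = 5.79e-08) in atbmi1ab_strong.

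The PSBQ copies changed rank between genotypes. PSBQ1 (AT4G21280) had 19.8 and 22.4 FPKM in atbmi1abc, 19.2 and 21.4 in atbmi1ab_strong, 1119 and 1158 in atbmi1b and 1442 and 1539 in atbmi1a, against 1311 and 1323 in WT. PSBQ2 (AT4G05180) had 183 and 196 FPKM in atbmi1abc, 144 and 177 in atbmi1ab_strong, 819.8 and 870.2 in atbmi1b and 1061 and 1229 in atbmi1a, against 1806 and 2134 in WT. In WT PSBQ2 was the higher copy, in the single mutants PSBQ1 was, and in the multiple mutants PSBQ2 was again, with PSBQ1 to PSBQ2 ratios of 0.109 and 0.114 in atbmi1abc, 0.133 and 0.121 in atbmi1ab_strong, 1.37 and 1.33 in atbmi1b and 1.36 and 1.25 in atbmi1a, against 0.726 and 0.620 in WT. PSBQ2 fell in every mutant, at -1.22 ± 0.13 (adjusted p = 0.00031) in atbmi1b and -0.78 ± 0.13 (adjusted p = 0.00412) in atbmi1a, and PSBQ1 fell in the multiple mutants, at -5.90 ± 0.09 (adjusted p = 1.96e-08) in atbmi1abc. PSBQ1 did not pass the test in either single mutant. The 2 copies share 76.87% of their coding positions and no 50-base window, and both promoters printed above hold 2 G-boxes.

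Of the small photosystem II subunits, PSBR (AT1G79040), PSBTN (AT3G21055), PSBW (AT2G30570), PSBX (AT2G06520) and PSBY (AT1G67740) fell in both multiple mutants, PSBW furthest, at -5.17 ± 0.12 (adjusted p = 4.1e-08) in atbmi1abc and -5.33 ± 0.12 (adjusted p = 5.36e-08) in atbmi1ab_strong. The smallest fall among these 5 was that of PSBY in atbmi1abc, at -3.13 ± 0.09 (adjusted p = 8.57e-08), and that of PSBTN in atbmi1ab_strong, at -3.64 ± 0.11 (adjusted p = 1.28e-07). PSBW had 76.6 and 85.6 FPKM in atbmi1abc, 72.5 and 72.0 in atbmi1ab_strong, 1276 and 1299 in atbmi1b and 1850.2 and 2119.7 in atbmi1a, against 2662 and 3262 in WT. PSBX and PSBR fell in atbmi1b, at -0.65 ± 0.12 (adjusted p = 0.00321) and -0.66 ± 0.16 (adjusted p = 0.011), but stood at 0.26 and 0.40 under quantile normalization. PSBR missed the threshold when WT replicate 2 (adjusted p = 0.0742) or atbmi1b replicate 1 (0.078) was left out. PSBS (AT1G44575), the sensor of lumen acidity that switches on heat dissipation of excess light, took another course. PSBS had 253 and 251 FPKM in atbmi1abc, 193 and 220.5 in atbmi1ab_strong, 1220.3 and 1347 in atbmi1b and 1335 and 1315 in atbmi1a, against 849 and 891 in WT. It rose in both single mutants, by 0.56 ± 0.09 (adjusted p = 0.00189) in atbmi1b and 0.61 ± 0.09 (adjusted p = 0.0025) in atbmi1a, and fell in the multiple mutants, at -1.78 ± 0.09 (adjusted p = 1.04e-06) in atbmi1abc and -2.07 ± 0.09 (adjusted p = 8.25e-07) in atbmi1ab_strong, the smallest falls among the 42 genes that fell.

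Set directly against the pooled single mutants, 42 of the 43 genes fell and 1 rose in atbmi1abc, beside 37.5% and 35.9% of tested loci, with a median log2 fold change of -4.17. The counts were also 42 and 1 in atbmi1ab_strong, beside 31.8% and 33.6%, with a median of -4.07. LHCA6 and PSBS, which had risen in a single mutant, fell here, at -5.02 ± 0.19 (adjusted p = 2.21e-07) and -2.37 ± 0.08 (adjusted p = 1.16e-07) in atbmi1abc. LHCB4.3 rose in this comparison too, by 1.63 ± 0.12 (adjusted p = 5.69e-06) in atbmi1abc and 0.88 ± 0.12 (adjusted p = 0.0003) in atbmi1ab_strong.

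The triple mutant was also set directly against the double mutant. In atbmi1abc against atbmi1ab_strong, 9 of 43 genes rose and 1 fell, below the shares of all tested loci (32.1% and 25.2%), and the median log2 fold change was 0.12, beside 0.10 over all tested loci (-0.01 for the 43 genes without atbmi1ab_strong replicate 1). Besides LHCB4.3, the larger rises were PSBY, with 97.6 and 105 FPKM in atbmi1abc against 59.6 and 65.4 in atbmi1ab_strong (0.69 ± 0.09), PSAH1 (0.55 ± 0.10), PSBX (0.45 ± 0.12) and LHCB6 (0.40 ± 0.10). LHCB2.1, PSBTN, PSAD1 and PSBS rose by 0.29 to 0.36. The count of rises was 5 with median-ratio scaling (median of all loci 0.00), 3 without atbmi1ab_strong replicate 1 and 3 without atbmi1abc replicate 2. The libraries of atbmi1abc lay above those of atbmi1ab_strong without overlap in 20 genes, beside 46.2% of tested loci, and below them in 6, beside 34.6%.

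Between the single mutants, 14 of the 43 genes fell and none rose in atbmi1b against atbmi1a, beside 3.49% and 3.96% of tested loci, with a median of -0.44. The lowest were LHCB1.4 at -1.42 ± 0.22 (adjusted p = 0.013), PSAD2 at -1.06 ± 0.21 (adjusted p = 0.0286), LHCB1.2 at -0.84 ± 0.19 (adjusted p = 0.0387) and LHCB1.5 at -0.75 ± 0.16 (adjusted p = 0.035). These calls lay close to the threshold: the count was 0 in a fit of these 2 genotypes alone and 0 without either atbmi1b library, and 2 without atbmi1a replicate 2; without either library of the multiple mutants it was 6 or 7. Calls over all tested loci fell to 0 in the fit of these 2 genotypes, against 679 lower and 771 higher with all libraries. They also fell without any 1 library of atbmi1b or of the multiple mutants. Without atbmi1a replicate 2, however, more of all tested loci were called lower than with all libraries.

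Other nuclear genes of the photosynthetic chain fell with the antenna in the multiple mutants, and fewer of them were called in the single mutants, a difference that was not tested. Of 13 electron transport genes, 12 fell and none rose in atbmi1abc (median -3.15), 13 fell in atbmi1ab_strong (-3.38), 4 fell and 3 rose in atbmi1b (-0.14), and none fell and 2 rose in atbmi1a (0.04). As shares, 30.8% fell and 23.1% rose in atbmi1b, beside 24.1% and 21.3% of all tested loci, and 0% fell and 15.4% rose in atbmi1a, beside 18.4% and 17%, so the single-mutant counts, other than the absence of falls in atbmi1a, lay near those of all loci. PETE2, the main plastocyanin gene, had 89.2 and 87.4 FPKM in atbmi1abc, 81.1 and 90.8 in atbmi1ab_strong, 2002 and 2177 in atbmi1b and 2420.1 and 2553 in atbmi1a, against 2409 and 2692 in WT. FD1, a ferredoxin gene, had 396 and 294 FPKM in atbmi1abc, 112 and 108 in atbmi1ab_strong, 987 and 1095 in atbmi1b and 1115 and 873 in atbmi1a, against 312 and 270.3 in WT. PETE2 thus fell in the multiple mutants, at -4.83 ± 0.09 (adjusted p = 3.13e-08) in atbmi1abc, and FD1 rose in the single mutants, by 1.84 ± 0.17 (adjusted p = 0.000152) in atbmi1b and 1.76 ± 0.17 (adjusted p = 0.000494) in atbmi1a. Of 15 genes for assembly, antenna insertion and thylakoid regulation, 14 fell and 1 rose in atbmi1abc, and 15 fell in atbmi1ab_strong. In atbmi1b 6 fell and 2 rose (40% and 13.3%, beside 24.1% and 21.3% of all tested loci). In atbmi1a 2 fell and 1 rose (13.3% and 6.67%, below the shares of all loci). CpSRP43, the chaperone that carries LHC proteins to the thylakoid, had 4.58 and 3.91 FPKM in atbmi1abc, 4.68 and 5.81 in atbmi1ab_strong, 131 and 152 in atbmi1b and 166 and 157 in atbmi1a, against 204 and 228 in WT. PSB28, a photosystem II assembly factor, was the gene that rose in atbmi1abc, by 0.49 ± 0.11 (adjusted p = 0.00336), while it fell, at -0.50 ± 0.11 (adjusted p = 0.00383) in atbmi1ab_strong.

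Transcripts of photosystem core subunits and rbcL encoded in the chloroplast (10 loci found) were lower in sum in every mutant than in WT. Their FPKM summed to 8.34 and 10.2 in atbmi1abc, 118 and 54.2 in atbmi1ab_strong, 60.8 and 89.9 in atbmi1b and 179.6 and 79.0 in atbmi1a, against 522 and 6227 in WT. Of the 10, 9 fell in atbmi1abc, 9 in atbmi1ab_strong, 9 in atbmi1b and 8 in atbmi1a, and none rose, with median log2 fold changes of -6.33, -4.54, -4.64 and -4.46. The WT libraries differ widely from each other here, and at least 1 locus of the list was listed at 0 in every library but WT replicate 2, so these medians depend on the pseudocount. Against the pooled single mutants, 0 of the 10 were called in atbmi1ab_strong (median 0.12), where 42 of the 43 nuclear genes fell. The genotypes share 1 estimate of the spread of each locus, which here takes in the gap between the WT libraries. Even in atbmi1b against atbmi1a the SE of these loci was 0.87 (psbB) to 2.24 (psbF), beside 0.09 (PSBS) to 0.23 (LHCB2.3) for the 43 genes. A lack of calls therefore does not show that the chloroplast loci were unchanged. In atbmi1abc 3 of the 10 fell in that comparison (median -1.75, 30%, beside 37.5% of all tested loci). With organelle loci removed and sums equalized, the 43 nuclear genes had medians of -4.79 in atbmi1ab_strong, -0.79 in atbmi1b and -0.43 in atbmi1a.

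Most greening regulators fell in the multiple mutants and most rose in atbmi1b. Counts of clock genes lay near those of all loci in several comparisons, but they join rises and falls that were large for some genes in the single mutants. GLK1 and GLK2, transcription factors that activate LHC genes, fell in atbmi1abc, at -2.17 ± 0.18 (adjusted p = 1.39e-05) and -2.61 ± 0.16 (adjusted p = 2.87e-06), and in atbmi1ab_strong, at -2.90 ± 0.18 (adjusted p = 4.67e-06) and -3.44 ± 0.16 (adjusted p = 1.18e-06). Of the 7 greening regulators 5 fell and 1, HY5, rose in atbmi1abc, 5 fell and 1 rose in atbmi1ab_strong, 4 rose and 1 fell in atbmi1b, and 1 rose and 1 fell in atbmi1a. These 7 include PIF1 and PIF3, which are not activators like GLK1 and GLK2, so the counts join genes of unlike roles. PIF3 (-2.87 ± 0.17) and PIF1 (-2.72 ± 0.30) were among the 5 that fell in atbmi1abc. PIF3 was the 1 that fell in atbmi1b (-1.02 ± 0.17) and in atbmi1a (-1.63 ± 0.17). The 4 that rose in atbmi1b were GLK1, GNC, CGA1 and HY5. The share that fell was 71.4% in atbmi1abc and 71.4% in atbmi1ab_strong, beside 37.7% and 32.6% of all tested loci. In atbmi1b 57.1% rose and 14.3% fell, beside 21.3% and 24.1%, while 37 of the 43 antenna and photosystem genes fell there. In atbmi1a 14.3% rose and 14.3% fell, beside 17% and 18.4%. CCA1, a morning clock factor that binds LHC promoters, had 9.49 and 7.83 FPKM in atbmi1abc, 8.84 and 8.61 in atbmi1ab_strong, 220.4 and 265 in atbmi1b and 138 and 149 in atbmi1a, against 55.1 and 52.8 in WT. CCA1 was thus high in the single mutants and low in the multiple mutants, with log2 fold changes of -2.51 ± 0.12 (adjusted p = 7e-07) in atbmi1abc, 2.14 ± 0.12 (adjusted p = 2.31e-05) in atbmi1b and 1.39 ± 0.12 (adjusted p = 0.000329) in atbmi1a. LHY rose with it, by 2.55 ± 0.12 (adjusted p = 1.48e-05) in atbmi1b and 1.52 ± 0.12 (adjusted p = 0.000257) in atbmi1a. PRR7 fell in both, at -2.23 ± 0.16 (adjusted p = 5.72e-05) and -1.43 ± 0.16 (adjusted p = 0.000822), and so did PRR5, at -1.26 ± 0.15 and -1.57 ± 0.15. Of 9 clock genes, 4 fell and none rose in atbmi1abc, 3 fell and 3 rose in atbmi1ab_strong, 2 fell and 3 rose in atbmi1b, and 3 fell and 2 rose in atbmi1a. In atbmi1ab_strong 33.3% fell and 33.3% rose, beside 32.6% and 31.8% of all tested loci, and in atbmi1abc 44.4% fell, beside 37.7%. The part of clock phase or of these regulators in the results was not tested.

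Among markers of other organs and stages, those of seeds were far higher in the multiple mutants, while counts of leaf and root genes lay near or below those of all loci in atbmi1abc except for falls of root genes. In atbmi1ab_strong larger shares of leaf genes fell and of root genes rose than of all loci. Seed storage and late embryo transcripts (11 loci) summed to 103361 and 124577 FPKM in atbmi1abc, 79505 and 94271 in atbmi1ab_strong, 77.0 and 44.4 in atbmi1b and 2952 and 47.3 in atbmi1a, against 68.4 and 60.1 in WT. In atbmi1abc 11 of 11 rose, and in atbmi1ab_strong 9 did, where CRA1 and CRU3 were listed at 0. These 2 loci had means of 25400 and 21400 FPKM in atbmi1abc, so the sums of the multiple mutants cannot be set against each other. Whether those 0 values are levels or missing values is unknown. Leaf regulators (8 loci) summed to 154 and 169 FPKM in atbmi1abc, 136 and 152 in atbmi1ab_strong, 153 and 171 in atbmi1b and 135 and 135 in atbmi1a, against 138 and 145 in WT; of the 7 tested, 2 rose and 2 fell in atbmi1abc, 1 rose and 4 fell in atbmi1ab_strong, 2 rose in atbmi1b, and 1 fell in atbmi1a. In atbmi1abc that is 28.6% higher and 28.6% lower, beside 36.3% and 37.7% of all tested loci. In atbmi1ab_strong it is 14.3% higher and 57.1% lower, beside 31.8% and 32.6%. The trichome regulator GL1 was listed at 0 in both multiple mutants. Root markers (14 loci) summed to 202 and 232 FPKM in atbmi1abc, 269 and 247 in atbmi1ab_strong, 149 and 154 in atbmi1b and 175 and 120.3 in atbmi1a, against 200.1 and 201 in WT. Of these 14, 5 rose and 7 fell in atbmi1abc, 6 rose and 2 fell in atbmi1ab_strong, 1 rose and 5 fell in atbmi1b, and 3 fell in atbmi1a. In atbmi1abc that is 35.7% higher and 50% lower, and in atbmi1a 21.4% lower, beside 18.4% of all tested loci. In atbmi1ab_strong it is 42.9% higher and 14.3% lower, beside 31.8% and 32.6%. In atbmi1b it is 7.14% higher and 35.7% lower, beside 21.3% and 24.1%. The 7 that fell in atbmi1abc were CASP1, PHO1, IRT1, CASP2, LRX1, EXPA7 and COBL9, so a sum near that of WT covers changes in both directions. CASP1 fell furthest, at -5.25 ± 0.13 (adjusted p = 4.71e-08), and IRT1, an iron transporter gene of the root epidermis, was listed at 0 there. The 5 that rose there were PIN2, WOX5, PLT2, SCR and PLT1. PIN2 rose furthest, by 3.25 ± 0.23 (adjusted p = 5.45e-06). The part of these shifts in the antenna and photosystem values was not tested.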

How the data were processed

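Libraries followed the standard Illumina protocol on RNA of whole seedlings, per the labels' protocols. The authors' tools were FastQC, TopHat, Cufflinks and Cuffdiff on TAIR10, per the submitters' processing notes, with no version, option, strand setting or annotation stated. Each deposited file holds FPKM values of 27086 loci. The headers call them "expression" without a unit, which was inferred from Cufflinks and from the values themselves. Read depth is unknown, so no counting interval is given.

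Values were tested as log2(FPKM + 1) by limma's moderated test with a mean-variance trend (limma 3.58.1 under R 4.3.3), in 1 fit of 10 libraries with 1 coefficient per genotype and no covariate, over 19460 loci (mean FPKM of 1 or more). Benjamini-Hochberg adjustment ran over all of these, with calls under 0.05. Fold changes on this scale understate changes of low genes. Because replicates may be technical, p-values reflect only how far these libraries scatter; no library was identical to another. The genes, the other lists (electron transport, assembly, greening, clock, chloroplast-encoded, seed storage, leaf, root) and the tests were chosen with earlier results of these data known. Any of the 43 genes could be named. Of the other lists, called genes with the smallest adjusted p and the ends of the range were named, with a few more where counts joined unlike genes. Positions, promoters, coding identity (best isoform pair) and shared 50-base windows come from RefSeq TAIR10.1, read with Biopython 1.88. The planned fallback for FPKM was used in place of a count model. The alternatives were other filters, a pseudocount of 0.1, median-ratio scaling, removal of organelle loci with equalized sums, a fit of the compared genotypes alone, the replicate block and leaving out each library; quantile normalization was added after the data were seen.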

Additional observations from a re-analysis of the deposited data

How the results depend on the processing

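The median of the 43 genes in atbmi1abc against atbmi1ab_strong (0.12) was -0.01 without atbmi1ab_strong replicate 1. For the multiple mutants against WT or against the pooled single mutants, the counts were 42 lower and 1 higher in 17 of 18 alternatives and 41 lower and 1 higher with at least 1 FPKM required in every library, a filter that removes LHCA6. No called gene that was tested changed direction there. For atbmi1a against WT (28 lower, 3 higher), quantile normalization gave 6 lower and 5 higher, and a fit of these genotypes alone 11 lower. For atbmi1b against WT (37 lower, 2 higher), quantile normalization gave 21 lower and 4 higher, and removal of organelle loci 4 higher. For atbmi1abc against atbmi1ab_strong (9 higher, 1 lower), median-ratio scaling gave 5 higher and 2 lower, removal of organelle loci 5 lower, quantile normalization 3 lower, and the replicate block 2 lower and 13 higher. For atbmi1b against atbmi1a (14 lower), the count was 5 with no filter, 9 with a pseudocount of 0.1, 5 with quantile normalization, 0 in a fit of these genotypes alone and 21 with the replicate block. Leaving out 1 library gave 17 to 29 lower and 2 to 3 higher in atbmi1a (17 without WT replicate 2), 31 to 37 lower and 2 to 3 higher in atbmi1b, 3 to 11 higher and 1 to 2 lower in atbmi1abc against atbmi1ab_strong, and 0 to 14 lower in atbmi1b against atbmi1a. Of 4783 alternative values of called genes, 231 kept their direction but missed the threshold, in single-mutant comparisons or atbmi1abc against atbmi1ab_strong, and 11 reversed, all under quantile normalization: in atbmi1a LHCB1.1 (0.24), LHCB6 (0.09) and PSBP1 (0.10), and in atbmi1b LHCB1.1 (0.00), LHCB2.1 (0.03), PSAK (0.22), PSAN (0.35), PSBO1 (0.30, adjusted p = 0.0356), PSBP1 (0.10), PSBR (0.40) and PSBX (0.26, adjusted p = 0.0238). By construction that normalization sets equal values at equal ranks, and 34 to 37 of the 43 genes stood in the top 100 of each WT and single-mutant library. Whether this or anything else caused the reversals was not tested. Removing organelle loci moved the median of all loci to 0.14 in atbmi1a, 0.14 in atbmi1b and 0.17 in atbmi1ab_strong against WT, and the calls over all loci to 4437 higher and 2338 lower (3299 and 3575 without it), 5676 and 3072 (4148 and 4689), and 7477 and 4938 (6193 and 6341); the median of the 43 genes was then -0.43, -0.79 and -4.79. For atbmi1abc against atbmi1ab_strong, calls over all loci were 6256 higher and 4904 lower, 4677 and 5421 without organelle loci, and 7801 and 4113 with quantile normalization. Replicate numbers did not pair the libraries: over 10 pairs of genotypes, same-numbered deviations correlated at -0.226 to 0.119, and 2 exceeded 0.1. The FPKM values give no read depth, so which low values rest on few reads is unknown.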
